A study of Mus musculus with 50 samples.

Results

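Lysosomal genes were followed in microglia sorted from the hippocampus of male C57BL/6J mice. The set held 51 genes, chosen by symbol from 53700 genes in the deposited counts for the product they encode, with earlier results of these data known. It comprised 8 lysosomal membrane proteins, 13 cathepsins and other peptidases, 10 glycosidases and lysozyme, 8 lipid-handling proteins, 3 acid phosphatases and nuclease, 3 transcription factors of the MiT family and 6 subunits of the vacuolar proton pump. Of the 51, 50 passed the filter on low counts and were tested among 16696 genes. The exception was Ctsk, the collagen-degrading cathepsin of osteoclasts, which did not exceed 1.07 CPM in any mouse. CPM, the count of a gene scaled to its TMM-adjusted library size, is the unit of every level below unless a value is said to be per length.

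Mice were reared under standard conditions (CTR) or exposed to early-life stress (ELS), in which dams and pups had limited nesting and bedding material in the first postnatal days up to P9. Microglia of 12 P9-CTR and 13 P9-ELS pups were collected at postnatal day 9 without any injection. The first part of a pup's number, read as its litter, gives 5 litters for the CTR pups and 4 for the ELS pups, and whole litters were assigned to CTR or ELS, so pups of a litter are not independent of each other and the tests below count each pup as 1 replicate. Adults were collected at postnatal day 200, 3 hours after an intraperitoneal injection of PBS (7 CTR-PBS and 6 ELS-PBS mice) or of the bacterial endotoxin lipopolysaccharide (LPS) at 1 mg/kg (7 CTR-LPS and 5 ELS-LPS mice). Read in the same way, the mice of each adult group came from 5 litters, and PBS and LPS mice shared litters. The tests likewise count each adult as 1 replicate. The sort took live CD11b+ cells of intermediate CD45 level, a gate meant to leave out macrophages and monocytes of high CD45. Myelin was removed with Percoll from adult tissue and not from P9 tissue, so age, the PBS injection and this step cannot be told apart.

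The lysosome is the acidic compartment in which a cell breaks down what it has engulfed and its own worn parts. Its V-ATPase pumps protons inward, its hydrolases work at the low pH that results, its membrane glycoproteins line and protect the inner face, and transporters and lipid-binding proteins return the breakdown products to the cytosol. Many of its genes carry a short palindrome, the CLEAR element, which TFEB, TFE3 and MITF can bind. In microglia, the phagocytes of the brain parenchyma, this compartment digests dying cells and synaptic material during development, and Cd68 staining is a common readout of it.

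Total counts ran from 5152838 to 42231258 per mouse with a median of 19960409.5. Single mice are named by their sample titles, with the number of the mouse after the age. In 3 mice few genes had a count: 12482 in P9_19.3_ELS, 15731 in P9_19.2_ELS and 12854 in P200_1.1_CTR_PBS, against 16485 to 21100 in the other 47. Of 50 lysosomal genes, 30 had their group's lowest level in P9_19.2_ELS and 13 their highest, and P200_1.1_CTR_PBS was the lowest of its group in 24. Of the mice with more detected genes, P9_58.2_CTR was the lowest of its group in 30 and the highest in 0, and P200_17.2_ELS_PBS the lowest in 21. P200_5.3_CTR_LPS was the lowest of its group in 27 genes and the highest in 0, and P200_11.2_ELS_LPS was the highest of its group in 28. The summed level of 9 microglia markers had a median of 45720 CPM in P9-CTR and 46866 in P9-ELS, 76450 in CTR-PBS and 74022 in ELS-PBS, and 65500 in CTR-LPS and 68387 in ELS-LPS. In sorted bulk samples, a lower share of a kind of cell and less RNA of a gene in each cell cannot be told apart.

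The promoters show where the palindrome lies in some of these genes. RefSeq promoter sequence (GRCm38.p6) was found for 43 of the 51 genes. The 8-base palindrome TCACGTGA, which reads the same on both strands, was present within the 250 bases before the start of 5 of the 43 (11.6%), against 0.907% of 27025 genes in the same table. Its 6-base core CACGTG, which every TCACGTGA contains, was present in 13 of the 43 (30.2%), against 6.86% of genes. The 5 windows are shown 5′ to 3′ on the strand of the gene with TCACGTGA in capitals. They belong to the catalytic V-ATPase subunit Atp6v1a, the protective carboxypeptidase Ctsa, the aspartic protease Ctsd, α-galactosidase Gla and the calcium channel Mcoln1.
Ctsa: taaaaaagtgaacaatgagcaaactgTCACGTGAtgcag
Ctsd: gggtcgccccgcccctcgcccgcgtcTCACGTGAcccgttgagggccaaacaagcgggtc
Mcoln1: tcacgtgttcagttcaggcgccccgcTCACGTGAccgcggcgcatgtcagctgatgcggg
Atp6v1a: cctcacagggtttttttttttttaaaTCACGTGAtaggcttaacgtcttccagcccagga
Gla: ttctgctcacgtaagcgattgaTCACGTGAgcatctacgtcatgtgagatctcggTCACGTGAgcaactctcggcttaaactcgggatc
The windows lie at chr2:164833734-164833772 on the + strand (Ctsa), chr7:142387893-142387952 on the − strand (Ctsd), chr8:3500447-3500506 on the + strand (Mcoln1), chr16:44139358-44139417 on the − strand (Atp6v1a) and chrX:134601167-134601255 on the − strand (Gla). The palindrome began 13 bases before the start of Ctsa, 46 before Mcoln1, 99 before Ctsd and 132 before Atp6v1a, and Gla held 2 copies, 228 and 195 bases before its start. A match describes letters and does not show binding. Plbd2, Ctse, Atp6v1b2, Ctsb, Asah1, Npc1, Ctsh and Atp6v0d2 were not among the matched promoters.

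Lysosomal transcripts were abundant at every age. The 51 genes took a median of 8.09% of all counts in P9-CTR (6.97 to 8.85%) and 6.92% in CTR-PBS (6.72 to 7.41%). Per kilobase of the canonical transcript, legumain (Lgmn), which cleaves after asparagine, ranked first in P9-CTR at 4764 RPKM ± 445 (SD, n = 12). Cathepsin S (Ctss) followed at 3914, cathepsin B (Ctsb) at 2724, the saposin precursor Psap at 2188, Laptm5 at 2148 and cathepsin D (Ctsd) at 2064 RPKM. In CTR-PBS the order was Ctss at 8604 RPKM ± 700 (SD, n = 7), Lgmn at 3869, Ctsd at 3380, Laptm5 at 2097, Psap at 1944, Cd68 at 1125 and Ctsb at 1052. Ctsb therefore stood at rank 3 in P9-CTR and at rank 7 in CTR-PBS, where the SD was 59.8 RPKM for Ctsb and 50.1 RPKM for Cd68.

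The comparison of P200 with P9 asked how the lysosomal genes differ between the developing and the adult hippocampus. In CTR mice, 9 of 50 were higher at P200 and 22 were lower (edgeR quasi-likelihood test, Benjamini-Hochberg adjusted p under 0.05), which is 31 genes in a comparison that called 44.1% of all genes, 17.4% higher and 26.6% lower. In ELS mice 32 were called, where 42.2% of all genes were, and 22 of them were lower, where 25.0% of all genes were. More than 2-fold changes were called for 14 lysosomal genes in CTR, against 26.4% of all genes, and for 13 in ELS, against 26.2%. The median log2 fold change of the lysosomal genes was −0.23 in CTR and −0.23 in ELS, beside −0.09 and −0.01 over all genes. These comparisons share no mice, but they share an estimate of the spread. In both, 26 genes were called, 8 higher and 18 lower in each, and the share of all genes called in both was not counted. Ctse, Acp5 and Atp6v0d2 reached 1 CPM in more than 2 pups and in no more than 2 adults, so they entered the test through the age at which they were high and had to fall. They are counted above among the more than 2-fold changes of each rearing group and among the 18 genes lower in both. Without them, 9 of 47 rose and 19 fell in CTR, and 10 rose and 19 fell in ELS. The median over these 47 genes was −0.183 in CTR and −0.180 in ELS. Of the 13675 genes that passed the filter in each age alone, 19.6% were higher and 21.9% lower in CTR, and 19.11% higher and 20.59% lower in ELS.

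**Figure D1:**
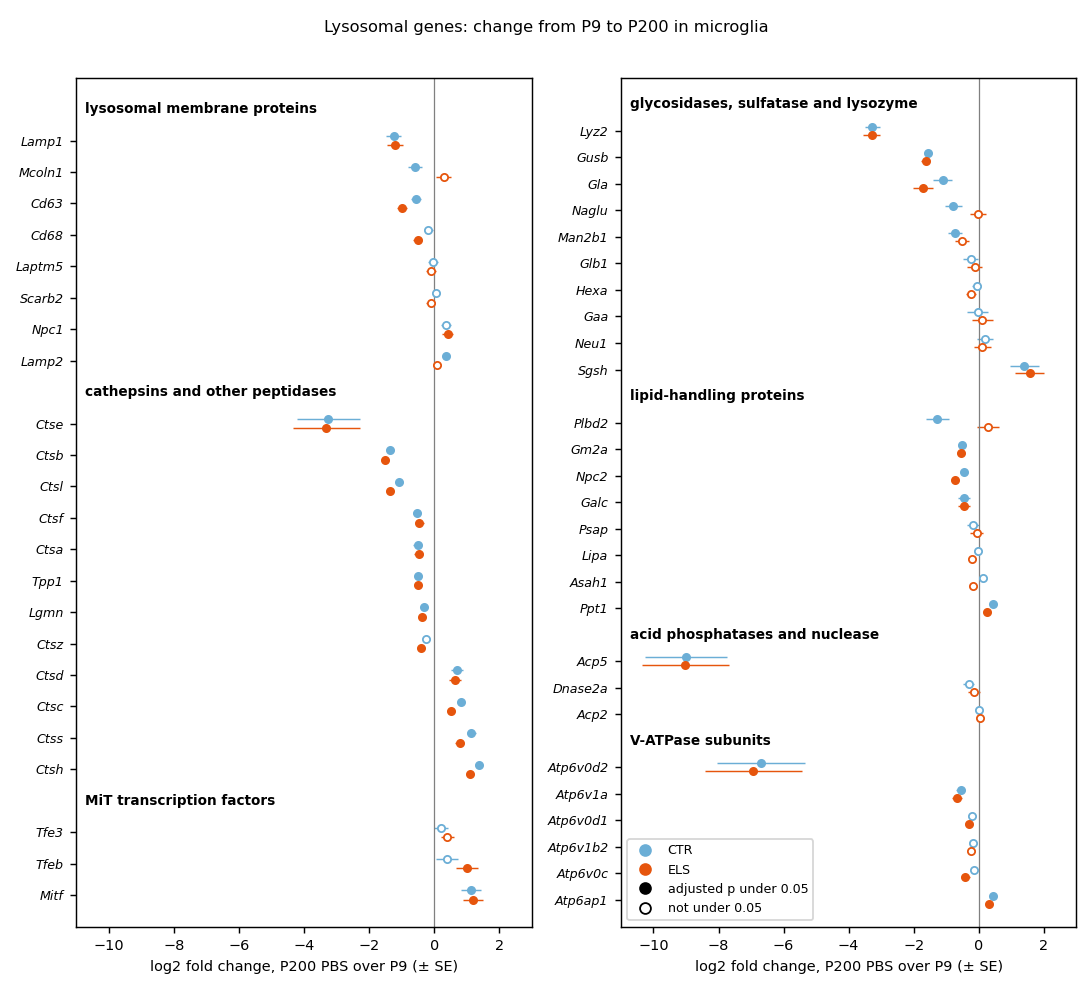
Log2 fold change with its SE of each of the 50 tested lysosomal genes, P200 PBS over P9, grouped by role, in CTR (blue) and ELS (orange), with filled points where the adjusted p was under 0.05. Fitted values run from −9.01 for Acp5 to 1.40 for Sgsh in CTR, those of Acp5 and Atp6v0d2 resting on a prior count, and most filled points lie below 0.

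Several marker lists of other cells were higher at P9. The median summed level of 7 markers of border-associated macrophages was 727 CPM in the CTR pups and 734 CPM in the ELS pups, against 4.91 to 8.197 CPM in the adult groups. Most of it was Mrc1, at 699.8 and 729 CPM in the pups and 2.37 to 5.96 CPM in the adults, while the other genes of that list summed to 21.5 and 15.4 CPM in the pups and 0.828 to 2.80 CPM in the adults. Markers of dividing cells, which microglia can express themselves, summed to 746 and 611 CPM at P9 and 6.95 to 10.4 CPM in adults. Astrocyte markers summed to 98.8 and 65.4 CPM at P9 and neuron markers to 82.7 and 53.12 CPM, against medians of at most 8.95 CPM in the adult groups. The 3 endothelial markers summed to 30.0 and 35.6 CPM at P9 against 41.0 to 55.5 CPM in adults. Most of it was Pecam1, at medians of 26.7 and 32.7 CPM in the pups and 41.0 to 55.4 CPM in the adults. Cldn5 went the other way, from 1.38 and 0.113 CPM to 0 in each adult group. With age, 1 of the 3 rose and 1 fell in each rearing group. Oligodendrocyte-lineage markers were at 24.7 and 20.23 CPM against 19.4 to 21.2 CPM. All markers of these lists were detected in at least 1 P9 pup. Their part in the age differences was not tested.

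Cathepsins moved in opposite directions with age. In CTR, 4 of 12 tested peptidases rose and 7 fell, and in ELS 4 rose and 8 fell, Ctse among those that fell in each. The peptidase with the largest fall in CPM was Ctsb, a cysteine protease with endo- and exopeptidase activity. Its level was 9442 to 15807 CPM in P9-CTR (median 13357) and 4740 to 5557 CPM in CTR-PBS (median 4901), and in ELS 9621 to 16829 CPM (median 13282) and 3573 to 5210 CPM (median 4943). No adult PBS mouse reached the lowest pup. The log2 fold change was −1.37 in CTR (SE 0.108, adjusted p = 3.22e-15) and −1.51 in ELS (SE 0.114, adjusted p = 1.13e-15). Ctsl, another cysteine endopeptidase, fell from a median of 2167 to 1012 CPM in CTR and from 2281 to 843 CPM in ELS (log2 fold change −1.08 and −1.37), again with no overlap between ages. The ages did not overlap for 7 lysosomal genes that were higher and 6 that were lower at P200 in CTR, against 6.56% and 10.5% of all genes. In ELS this held for 2 higher and 8 lower genes, against 4.6% and 7.03% of all genes. The lower genes of each rearing group include Acp5, whose direction was fixed by the filter. The shares of all genes were likewise not limited to genes passing the filter in each age.

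Ctss, the cysteine protease that trims the invariant chain in antigen presentation, rose. It measured 4016 to 7545 CPM in P9-CTR (median 5355) and 10398 to 12923 CPM in CTR-PBS (median 11874), with no overlap (log2 fold change 1.14, SE 0.140, adjusted p = 2.93e-09). In ELS, P9 values were 4554 to 13734 CPM (median 5786) and ELS-PBS values 8688 to 12704 CPM (median 10190), and the log2 fold change was 0.78 (adjusted p = 1.64e-05). The overlap in ELS came from P9_19.2_ELS alone, the mouse with the highest Ctss of its group, and without the 3 mice of few detected genes the ELS value was 0.91. Ctsh, an aminopeptidase, rose the most in relative terms of the abundant cathepsins, from 280 to 651 CPM in P9-CTR (median 403) to 934 to 1204 CPM in CTR-PBS (median 1072), a log2 fold change of 1.36 (adjusted p = 6.04e-16). In ELS Ctsh rose by 1.103 on the log2 scale (adjusted p = 1.51e-12), and no mouse of 1 age lay in the range of the other in either rearing group.

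Ctsd, the main aspartic protease of the lysosome, was at 2573 to 5722 CPM in P9-CTR (median 4469) and 6295 to 7852 CPM in CTR-PBS (median 7379). The groups did not overlap, and its log2 fold change was 0.71 (SE 0.186, adjusted p = 0.00157). In ELS it was 0.64 (adjusted p = 0.0055) with overlap, since P9-ELS ran from 725 CPM in mouse P9_19.2_ELS to 7184 CPM and ELS-PBS from 5144 to 8804 CPM. Ctsc, which activates granule serine proteases, rose by 0.81 in CTR and 0.52 in ELS on the log2 scale. The peptidases that fell in both rearing groups by less than 1 log2 unit were Ctsf (−0.53 and −0.46), Ctsa (−0.50 and −0.47), Tpp1 (−0.48 and −0.51) and Lgmn (−0.30 and −0.38). Ctse, the endosomal relative of Ctsd, which passed the filter through the pups alone, had log2 fold changes of −3.26 and −3.32 from group means of only 1.21 and 1.52 CPM.

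**Figure D2:**
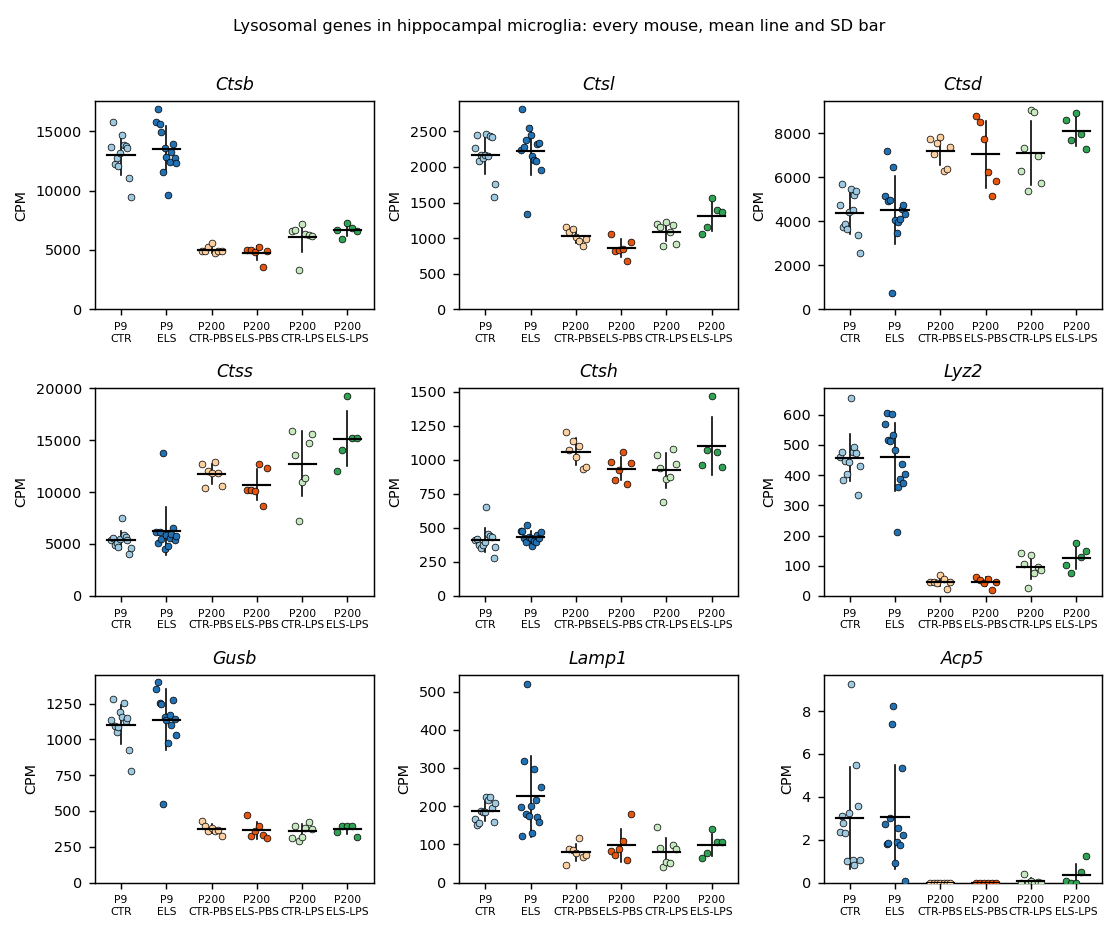
Level in CPM (linear axis from 0) of 9 lysosomal genes in every mouse of the 6 groups, with the group mean as a line and the SD as a bar. Ctsb, Ctsl, Lyz2, Gusb, Lamp1 and Acp5 are lower in the adult groups than at P9, and Ctsd, Ctss and Ctsh are higher. P9_19.2_ELS gives the isolated points of Ctss (13734 CPM) and Ctsd (725 CPM).

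The ratio of cathepsins within a mouse does not depend on library scaling. Per transcript length, Ctss over Ctsb had a median of 1.39 in P9-CTR (1.22 to 1.80) and 7.95 in CTR-PBS (7.42 to 9.53). In P9-ELS it was 1.56 (1.06 to 4.16, the highest in mouse P9_19.2_ELS) and in ELS-PBS 7.93 (7.06 to 8.77). Every adult exceeded every pup. Ctsd over Ctsb lay below 1 in 12 of 12 P9-CTR mice (median 0.744) and in 12 of 13 P9-ELS mice (median 0.739). It lay above 1 in all 25 adults, with medians of 3.22 in CTR-PBS and 3.42 in ELS-PBS. After LPS the medians were 2.499 in CTR-LPS and 2.76 in ELS-LPS for Ctsd over Ctsb, and 7.64 and 8.03 for Ctss over Ctsb, and the ranges of the PBS and LPS mice overlapped.

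**Figure D3:**
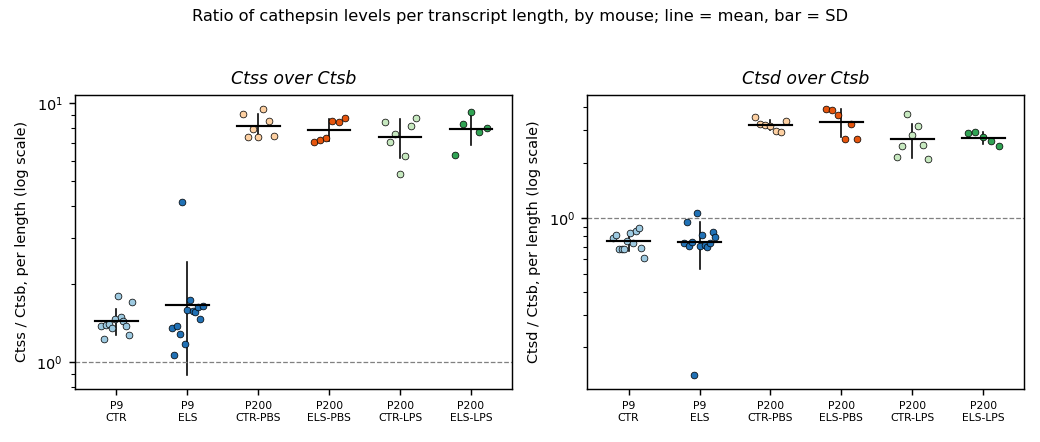
Ratio of Ctss to Ctsb and of Ctsd to Ctsb, each as CPM per base of canonical transcript, in every mouse (log axis), with group means as lines, SDs as bars and a dashed line at 1. All 25 adult mice lie above the 25 pups for Ctss over Ctsb, and the medians of Ctsd over Ctsb go from 0.744 in P9-CTR to 3.22 in CTR-PBS.

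Among glycosidases and lysozyme, 1 rose and 5 fell in CTR and 1 rose and 3 fell in ELS, of 10. Lyz2, lysozyme of myeloid cells, fell the furthest of the well-expressed genes. It measured 334 to 657 CPM in P9-CTR (median 454) and 24.2 to 70.3 CPM in CTR-PBS (median 45.8), and 212 to 605 CPM (median 482) and 20.7 to 61.1 CPM (median 50.7) in ELS. The groups lay far apart in both, with log2 fold changes of −3.27 (SE 0.239, adjusted p = 3.02e-16) and −3.29 (adjusted p = 2.29e-15). Its near copy Lyz1 did not exceed 1.01 CPM in any mouse. Gusb, β-glucuronidase, fell from a median of 1131 to 366 CPM in CTR and from 1158 to 345 CPM in ELS, with log2 fold changes of −1.55 and −1.64 and no overlap.

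Gla, α-galactosidase A, fell in CTR (log2 fold change −1.11, adjusted p = 0.00136) and in ELS (−1.71, adjusted p = 1.22e-05), from medians of 13.6 and 15.8 CPM at P9. Its exons overlap those of Hnrnph2 and Rpl36a on the opposite strand, and whether counting used the strand is not given in the sources used here. Sgsh, sulfamidase of heparan sulfate breakdown, was the member with the largest rise, by 1.40 (SE 0.451, adjusted p = 0.00987) and 1.56 (SE 0.457, adjusted p = 0.00467). Its levels were low and overlapped, at 1.22 to 7.43 CPM in P9-CTR (median 3.66) and 6.49 to 14.4 CPM in CTR-PBS (median 10.4). Man2b1, α-mannosidase, fell in CTR (−0.73, adjusted p = 0.00494), as did Naglu, which acts on heparan sulfate (−0.78, adjusted p = 0.0105). Neither passed in ELS, and the difference was not called (Naglu 0.75, adjusted p = 0.463). Gaa, Glb1, Hexa and Neu1 were called in neither rearing group.

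Of 8 lipid-handling genes, 1 rose and 4 fell in CTR and 1 rose and 3 fell in ELS. The largest fall in CTR was that of Plbd2 (−1.27, adjusted p = 0.00281), which was not called in ELS. Npc2, the soluble sterol carrier that hands cholesterol to Npc1, fell in CTR (−0.46) and in ELS (−0.73, adjusted p = 1.44e-06), without overlap in ELS, from 1017 to 1809 CPM at P9 to 582 to 786 CPM in ELS-PBS. Gm2a, the activator protein of GM2 ganglioside breakdown, fell in both (−0.52 and −0.54), as did Galc, galactosylceramidase (−0.45 in each). Ppt1, palmitoyl-protein thioesterase, rose by 0.44 in CTR (adjusted p = 5.15e-05), and in ELS mice by 0.25 (adjusted p = 0.0248). Asah1, Lipa and Psap passed in neither, with Psap at medians of 5236 to 6711 CPM over the 6 groups.

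Of 8 membrane genes, 1 rose and 3 fell in each rearing group. Lamp1 and Lamp2 encode the most abundant glycoproteins of the lysosomal membrane. Lamp1 was at 152 to 225 CPM in P9-CTR (median 186) and 47.1 to 117 CPM in CTR-PBS (median 76.5), with no overlap and a log2 fold change of −1.25 (SE 0.235, adjusted p = 2.04e-05). In ELS it was −1.20 (adjusted p = 8.11e-05), with overlap. Lamp2 was at 946 to 1459 CPM in P9-CTR (median 1385) and 1588 to 1810 CPM in CTR-PBS (median 1710), a rise of 0.37 (adjusted p = 0.00494) without overlap. In ELS Lamp2 measured 0.08 (adjusted p = 0.587), and the difference of −0.29 between rearing groups did not pass (adjusted p = 0.545).

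Cd63, a tetraspanin of late endosomes, had a log2 fold change of −0.56 in CTR (adjusted p = 0.00141), and ELS mice had −0.98 (adjusted p = 8.47e-07). Cd68, the microglial lysosome marker, was called in ELS (−0.51, adjusted p = 0.00496). Its level in P9_19.2_ELS was 4205 CPM against a group median of 1573 CPM, and without the 3 mice of few detected genes the change was −0.32 (adjusted p = 0.00792). Npc1, the membrane cholesterol exporter, had 0.41 in ELS (adjusted p = 0.0466), a call lost without the same 3 mice (adjusted p = 0.0892). Laptm5 and Scarb2 passed in neither.

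Of 6 proton pump genes, 1 rose and 2 fell in CTR, and 1 rose and 4 fell in ELS, with Atp6v0d2 among those that fell in each. Atp6v1a, the catalytic subunit of the cytosolic head, went from a median of 153 to 98.2 CPM in CTR (log2 fold change −0.56, adjusted p = 0.0016) and from 156 to 98.7 CPM in ELS (−0.68, adjusted p = 0.000314). Atp6ap1, the accessory subunit that helps to assemble the pump, rose from 593 to 843 CPM in P9-CTR (median 758) to 893 to 1083 CPM in CTR-PBS (median 1028) without overlap, by 0.43 (adjusted p = 1.07e-05), and by 0.33 in ELS. The paralogs of the stalk subunit d differed. Atp6v0d1, the widely expressed form, was at medians of 254 and 209 CPM in CTR and fell in ELS (−0.31), where the ages did not overlap. Atp6v0d2, the form of osteoclasts and macrophages, gave 326 counts over the 12 P9-CTR pups and 1 count over the 7 CTR-PBS adults, a ratio of pooled levels of 192 (95% exact interval 34.2 to 7600, counting error only). In ELS it gave 189 counts at P9, with 5 of 13 pups at 0, and 0 in ELS-PBS, at least 32.8-fold lower against a floor of 3 counts over the group.

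Acp5, the tartrate-resistant acid phosphatase of osteoclasts and macrophages, passed the filter through the pups alone, so its direction with age was fixed. It had at least 15 counts in each P9-CTR pup (0.821 to 9.25 CPM, median 2.58) and 0 counts in all 7 CTR-PBS and all 6 ELS-PBS mice. With the floor of 3 counts over the group, it was at least 151-fold lower at P200 in CTR and at least 127-fold lower in ELS. Acp2 and Dnase2a, the other acid hydrolases of the group, passed in neither. Of the MiT factors, Mitf rose from 10.0 to 19.07 CPM in P9-CTR (median 13.0) to 16.5 to 42.7 CPM in CTR-PBS (median 29.9), by 1.13 (SE 0.305, adjusted p = 0.00222), and by 1.198 in ELS (adjusted p = 0.00152). Tfeb measured 0.39 in CTR (adjusted p = 0.378) and rose in ELS by 1.01 (adjusted p = 0.017), from medians of 8.49 and 7.88 CPM at P9, and Tfe3 passed in neither.

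The genes with the palindrome did not move 1 way. Of the 5, Ctsd rose and Atp6v1a, Ctsa, Gla and Mcoln1 fell in CTR, with a median of −0.56. The 37 tested genes whose promoters lacked it had 7 higher and 14 lower and a median of −0.18. In ELS 1 rose and 3 fell. Mcoln1, the TRPML1 calcium channel, was the gene not called there, at 0.29 (adjusted p = 0.304) against −0.59 in CTR (adjusted p = 0.0278). The CTR call of Mcoln1 was lost without P200_1.1_CTR_PBS (adjusted p = 0.0924) or P200_8.1_CTR_PBS (adjusted p = 0.0765).

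None of the 50 genes differed between ELS and CTR in its change with age, in a test that called 0.0299% of all genes. At an unadjusted p under 0.05 there were 4 lysosomal genes and 1712 of all genes, and DESeq2 called 0 of the 50. The median difference, ELS minus CTR, was −0.07 for the lysosomal genes and 0.02 over all. The lowest adjusted p was that of Plbd2, a phospholipase B-like protein of the lysosomal lumen, whose change was 1.55 log2 units higher in ELS (SE 0.483, adjusted p = 0.267), followed by Mcoln1 at 0.88 (adjusted p = 0.319). The 5 genes called in CTR alone (Lamp2, Man2b1, Mcoln1, Naglu and Plbd2) and the 6 called in ELS alone (Atp6v0c, Atp6v0d1, Cd68, Ctsz, Npc1 and Tfeb) are therefore not shown to differ between the rearing groups.

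Other genes of the compartment were called in both directions with age. Of the 94 tested genes of these lists, 53 were called in CTR, where 44.1% of all genes were. In ELS 45 were called, where 42.2% of all genes were. Of 25 other hydrolases, 7 rose and 7 fell in CTR and 7 rose and 8 fell in ELS. Among them were the arylsulfatases Galns (−2.36 and −1.83) and Arsb (−1.72 and −1.67), the phospholipase Pla2g15 (1.40 and 1.25) and cathepsin W (Ctsw, 1.57 and 1.74), each as log2 fold change in CTR and in ELS, and the ribonuclease Rnaset2a in CTR (−1.66). Of 26 other membrane proteins and transporters, 10 rose and 7 fell in CTR and 7 rose and 5 fell in ELS, and the channels Mcoln2 (−6.07 and −6.86) and Mcoln3 (−6.30 and −7.10), relatives of Mcoln1, fell the furthest. Of 14 other V-ATPase subunits, 4 rose and 2 fell in CTR and 2 rose and 3 fell in ELS, with Atp6v1c1 higher (1.19 and 0.77) and Atp6v0e2 lower (−4.62 and −3.58) in both. Levels of Mcoln2, Mcoln3 and Atp6v0e2 are not given here, nor whether they passed the filter in each age alone. Their direction may therefore have been fixed by the filter, and the size of their falls may rest on a prior count.

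The machinery that delivers hydrolases and the regulators of the MiT factors gave these counts, beside 44.1% of all genes called in CTR and 42.2% in ELS. Of 12 genes of mannose 6-phosphate and sortilin sorting, 1 rose and 4 fell in CTR and 1 rose and 3 fell in ELS. Gnptg, a subunit of the enzyme that makes the mannose 6-phosphate tag, fell in both (−0.73 and −0.60), and the sorting receptor Sort1 rose by 0.46 and 0.64. Of 14 genes of the Rag, Ragulator and folliculin group, which tether MiT factors to the lysosome, 8 rose and 2 fell in CTR and 4 rose and 3 fell in ELS. The Rag GTPase Rraga (0.76 and 0.41) and folliculin (Flcn, 0.53 and 0.61) rose in both, and Tfec, a MiT relative counted with this list, fell in both (−6.34 and −5.50). Whether Tfec passed the filter in each age alone is not given here, so its direction may also have been fixed. Of 3 cystatins, which inhibit cysteine cathepsins, Cst3 rose by 1.94 (adjusted p = 7.02e-17) and 1.39 (adjusted p = 7.36e-12), and Cstb fell in ELS (−0.93, adjusted p = 7.14e-05).

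The LPS comparisons asked how the adult cells responded to a systemic challenge 3 hours earlier. In CTR mice, 2 lysosomal genes rose and 1 fell, which is 3 of 50 where 14.9% of all genes were called, 8.73% higher and 6.2% lower. In ELS mice, 6 rose and 2 fell, which is 8 of 50 where 12.3% of all genes were called, 7.4% higher and 4.94% lower. The median log2 fold change, LPS over PBS, was 0.03 in CTR and 0.13 in ELS, beside 0.00 and −0.04 over all genes. Groups did not overlap for 1 lysosomal gene in CTR (7.49% of all genes) and for 6 in ELS (10.0% of all genes). The PBS mice of these comparisons are also the adults of the age comparisons. Markers of neutrophils summed to at most 9.17 CPM in an LPS mouse, with Ly6g at 0 throughout, and monocyte markers had medians of 3.55 to 6.82 CPM in the 6 groups.

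Lyz2 rose after LPS in both rearing groups. It measured 24.2 to 70.3 CPM in CTR-PBS (median 45.8) and 27.9 to 141 CPM in CTR-LPS (median 94.2), and 20.7 to 61.1 CPM in ELS-PBS (median 50.7). The 5 ELS-LPS mice had 174, 149, 130, 102 and 76.4 CPM, all above the ELS-PBS mice, whereas P200_5.3_CTR_LPS, at 27.9 CPM, lay within the CTR-PBS range. The log2 fold change was 1.02 in CTR (SE 0.232, adjusted p = 0.00114) and 1.42 in ELS (SE 0.262, adjusted p = 6.07e-05). The highest LPS mouse stayed below the lowest P9-ELS pup, at 212 CPM. With the first part of the mouse number, read as the nest, as a replicate block, the CTR value was 0.75 (adjusted p = 0.106).

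Lipa, the acid lipase that frees cholesterol and fatty acids, fell. It was at 356 to 429 CPM in CTR-PBS (median 371) and 226 to 316 CPM in CTR-LPS (median 264), with no overlap (log2 fold change −0.51, SE 0.108, adjusted p = 0.000428). In ELS-PBS it was at 295 to 376 CPM (median 359), and the ELS-LPS mice had 326, 293, 259, 246 and 239 CPM. Those groups overlapped. The ELS value was −0.37 (adjusted p = 0.0402), a call lost without any 1 of 8 of the 11 mice. Acp5 went from 0 counts in all adult PBS mice to 18 counts over the 7 CTR-LPS mice, of which 16 were in mouse P200_1.3_CTR_LPS, and to 27 counts over the 5 ELS-LPS mice, of which 17 were in mouse P200_20.1_ELS_LPS and 9 in mouse P200_17.3_ELS_LPS. Against the floor of 3 counts over the group these are at least 5.76-fold and at least 14.5-fold higher, and in CTR the call was lost without mouse P200_1.3_CTR_LPS (adjusted p = 0.322).

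**Figure D4:**
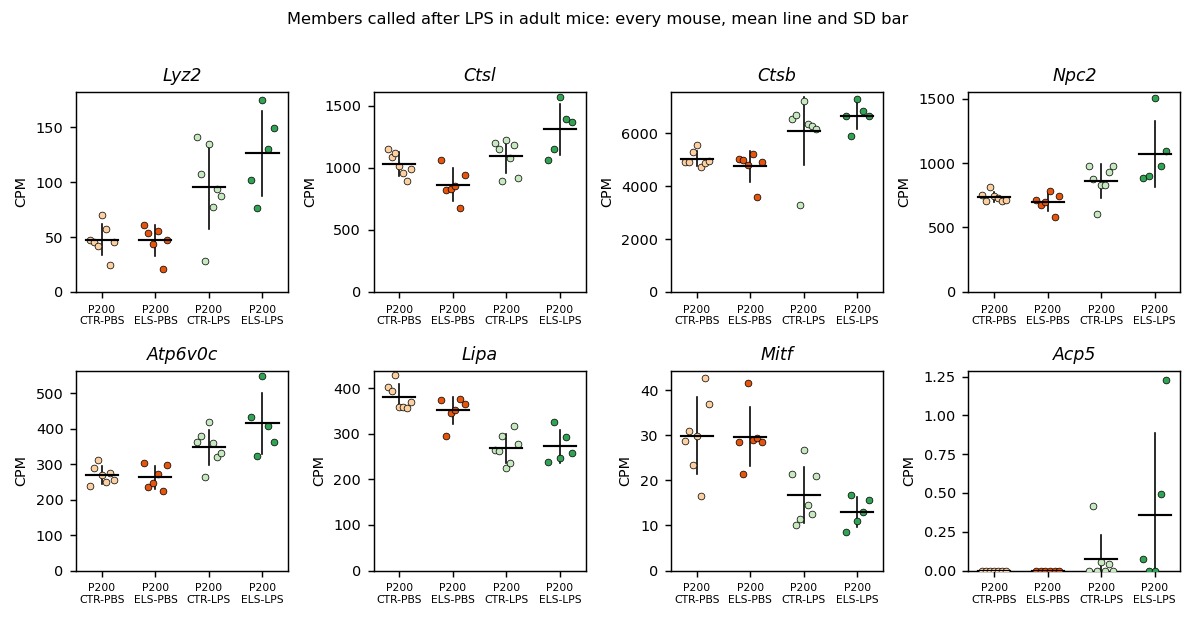
Level in CPM (linear axis from 0) of the 8 lysosomal genes called after LPS in either rearing group, in every adult mouse, with the group mean as a line and the SD as a bar. Lyz2 is higher and Lipa lower after LPS in both rearing groups, P200_5.3_CTR_LPS is the isolated low point of Ctsb (3283 CPM), and most Acp5 points lie at 0.

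In ELS mice alone the test also called the cathepsins Ctsl and Ctsb, the sterol carrier Npc2, the proteolipid subunit Atp6v0c, which forms the proton-carrying ring of the pump, and Mitf. Ctsb was at 3573 to 5210 CPM in ELS-PBS and at 7286, 6851, 6641, 6633 and 5896 CPM in the ELS-LPS mice, with no overlap (log2 fold change 0.49, SE 0.129, adjusted p = 0.00678). Ctsl was at 673 to 1061 CPM in ELS-PBS (median 843) and at 1565, 1393, 1367, 1151 and 1060 CPM in ELS-LPS (0.60, adjusted p = 0.000642). The lowest LPS mouse lay level with the highest PBS mouse, and the others were above. Npc2 was at 582 to 786 CPM (median 707) and then at 1505, 1092, 974, 902 and 882 CPM (0.62, adjusted p = 0.00128), and Atp6v0c at 226 to 304 CPM (median 259) and then at 548, 433, 408, 363 and 323 CPM (0.66, adjusted p = 0.007). Neither overlapped.

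Mitf fell in ELS from 21.5 to 41.7 CPM in ELS-PBS (median 28.7) to 16.7, 15.8, 12.9, 10.9 and 8.48 CPM in ELS-LPS, without overlap. Its log2 fold change was −1.20 (SE 0.407, adjusted p = 0.0429), a call lost without any of 9 of the 11 mice. In CTR it was −0.83 (adjusted p = 0.109). Tfeb did not pass, at −1.015 in CTR (adjusted p = 0.078) and, in ELS mice, −1.003 (adjusted p = 0.153). Without the 3 mice of few detected genes, of which only P200_1.1_CTR_PBS is an adult, the counts of called genes were 7 in CTR and 15 in ELS, and Tfeb was among the added genes in both.

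The response to LPS was not shown to differ between rearing groups for any lysosomal gene. The test of that difference called 0 of 50 and 0.0% of all genes, with 3 lysosomal genes and 980 of all genes at an unadjusted p under 0.05, and DESeq2 called 0 of the 50. The median difference, ELS minus CTR, was 0.11 for the lysosomal genes and −0.06 over all. Ctsl had 0.51 (adjusted p = 0.445), Ctsh 0.44 (adjusted p = 0.676) and Npc2 0.39 (adjusted p = 0.806).

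The other lysosomal lists were read against the 14.9% of all genes called after LPS in CTR and the 12.3% called in ELS. On the log2 scale Mcoln2 rose by 5.88 in CTR (adjusted p = 1.1e-05) and, in ELS mice, by 7.01 (adjusted p = 1e-05), and the peptide and histidine transporter Slc15a3 by 1.46 and 1.65. The levels of Mcoln2 in PBS mice are not given here, so the size of its rise may rest on a prior count. The endolysosomal cation channel Tpcn1 (−1.84 and −1.996) and the cystine exporter Ctns (−0.87 and −0.66) fell in both. Of 26 genes in that list, 2 rose and 3 fell in each rearing group. Flcn fell (−1.25 in CTR and −1.08 in ELS), and its partners Fnip1 (−0.99 and −0.78) and Fnip2 (−1.15 and −1.42) also fell, of a list of 14 in which Tfec (2.73) was the gene that rose, in CTR. Of 14 other V-ATPase subunits, Atp6v0a1 rose in both (1.25 and 1.02) and Atp6v0a2 in CTR (0.60). Of 25 other hydrolases, edgeR called 0 in either rearing group, with 3 in CTR and 0 in ELS at an unadjusted p under 0.05. Of 12 sorting genes, 2 rose and 1 fell in CTR and 1 fell in ELS, and of the 3 cystatins Cst3 rose in ELS by 0.61 (adjusted p = 0.0153).

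The direct comparisons of ELS with CTR asked whether the stress itself left a mark. At P9 the test called 0 of 50 lysosomal genes and 0.0% of all genes, with 2 and 914 at an unadjusted p under 0.05, and DESeq2 called 0 of the 50. The log2 fold changes ran from −0.83 to 0.34, with a median of 0.07 against 0.00 over all genes, and 41 of 50 were above 0, where 50.5% of all genes were. In P9-CTR, the lowest level was in P9_58.2_CTR for 30 of the 50 genes and in P9_58.1_CTR, read as its littermate, for 10. In P9-ELS, P9_19.2_ELS was the lowest in 30 and the highest in 13. The part of single pups or litters in this count was not tested. Atp6v0c at 0.23, Ctsc at 0.20 and Npc2 at 0.20 had the lowest adjusted p (0.908 each). After LPS, the ELS over CTR comparison called 0 of 50 and 0.0% of all genes, with 4 and 798 at an unadjusted p under 0.05 and 0 of the 50 by DESeq2. The median was 0.14 against −0.01 over all genes, and 38 of 50 genes were above 0, where 47.7% of all genes were. In these groups P200_5.3_CTR_LPS was the lowest in 27 genes and the highest in 0. P200_11.2_ELS_LPS was the highest in 28 and the lowest in 10. The part of these mice in this count was not tested. Ctsf was the gene whose groups did not overlap there, where 0.156% of all genes did not. It was at 417 to 503 CPM in CTR-LPS and at 596, 546, 534, 533 and 517 CPM in ELS-LPS. Its log2 fold change was 0.19 (SE 0.158, unadjusted p = 0.227 in the edgeR test), and it was not called.

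In adult PBS mice 1 lysosomal gene was called, where 0.168% of all genes were, and it was Plbd2. The level was 10.1 to 38.5 CPM in CTR-PBS (median 28.1) and 28.9 to 149 CPM in ELS-PBS (median 83.8). All but 1 of the 6 ELS-PBS mice lay above the highest CTR-PBS mouse, and the exception was mouse P200_17.2_ELS_PBS at 28.9 CPM. The log2 fold change was 1.72 (SE 0.397, adjusted p = 0.0466). Over the alternatives it was 1.52 to 1.90 with an adjusted p of 0.00625 to 0.178, and the call was lost without any of 11 of the 13 mice. At P9 the groups were alike in range, at 21.1 to 110 CPM in P9-CTR (median 60.3) and 5.88 to 129 CPM in P9-ELS (median 70.5), with a log2 fold change of 0.16 (adjusted p = 1). In LPS mice it was 0.95 (adjusted p = 0.925), at 18.9 to 71.4 CPM in CTR-LPS and 103, 74.7, 69.6, 57.1 and 49.9 CPM in ELS-LPS. The exons of Plbd2 overlap those of Sds on the opposite strand.

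**Figure D5:**
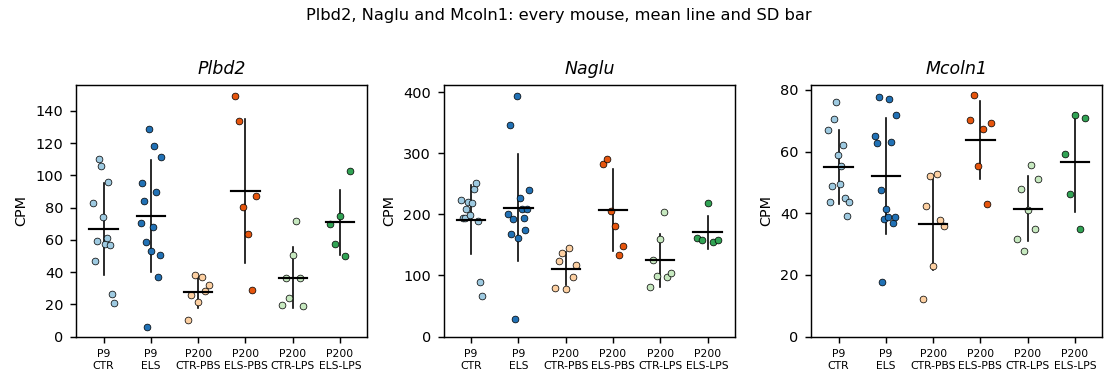
Level in CPM (linear axis from 0) of Plbd2, Naglu and Mcoln1 in every mouse of the 6 groups, with the group mean as a line and the SD as a bar. The CTR-PBS mice of Plbd2 lie between 10.1 and 38.5 CPM and the ELS-PBS mice between 28.9 and 149 CPM, and the groups overlap for each of the 3 genes.

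Naglu and Mcoln1 had the next values in adult PBS mice. Naglu was at 78.6 to 145 CPM in CTR-PBS (median 118) and 134 to 291 CPM in ELS-PBS (median 193), with a log2 fold change of 0.89 (SE 0.289, adjusted p = 0.181). Mcoln1 was at 12.2 to 52.9 CPM (median 37.9) and 42.9 to 78.3 CPM (median 68.2), with 0.80 (SE 0.255, adjusted p = 0.163). Both pairs of groups overlapped, and neither passed. No lysosomal gene had groups without overlap in this comparison, where 0.323% of all genes did. The median over the 50 genes was −0.02 against 0.01 over all genes, and 4 lysosomal genes and 1622 of all genes had an unadjusted p under 0.05. Of the 94 tested genes of the other lysosomal lists, edgeR called 0 between ELS and CTR at P9, in PBS and in LPS mice, with 17, 10 and 3 at an unadjusted p under 0.05. These are 18.09, 10.64 and 3.191%, beside 5.474, 9.715 and 4.78% of all genes. At P9 the 17 included 7 of the 14 other V-ATPase subunits, with adjusted p of 0.897 to 0.908. Of these, Atp6v0b, Atp6v0e, Atp6v1d, Atp6v1e1, Atp6v1f and Atp6v1g1 had log2 fold changes of 0.21 to 0.35, ELS over CTR, and Tcirg1 had −0.35. The unadjusted p-values count pups of a litter as separate replicates. Alternative fits are given for the 50 lysosomal genes alone, so the part of single pups or litters in these subunits was not tested.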

How the data were processed

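RNA of hippocampal microglia from 50 mice was sequenced, 1 library per mouse, and the authors deposited raw counts per gene. They used bcl2fastq 2.20, cutadapt 2.10, STAR on GRCm39 and HTSeq 0.11.0. The annotation release and strand setting are not given in the sources used here. Exons of 23 members overlap those of another counted gene, 21 of them on the opposite strand. For 3 members, Ctsd, Ctsl and Glb1, there is such an overlap on the same strand. What these overlaps do to the levels was not tested. A gene was tested if more than 2 mice had it at 1 CPM or higher (16696 of 53700). The 6 groups, from the sample titles, entered 1 edgeR 4.0.16 quasi-likelihood fit (R 4.3.3, TMM, no covariates), with p-values adjusted by Benjamini-Hochberg over all 16696 genes and called at 0.05. Mice are the replicates. Levels are CPM and fold changes log2. RPKM used canonical transcript lengths of GENCODE M39. No pair of libraries agreed within sampling noise. Scripts were tested on simulated data. Floors of 3 counts and intervals cover counting error only.

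The members and all lists were chosen with earlier results of these data known. Called members with the largest fold changes were named, up to 15 in each direction, and where fewer than 3 were called, the 3 with the lowest p. Other lists gave up to 4 called genes each. Alternatives were DESeq2 1.42.0, DESeq2 size factors, likelihood-ratio tests, other filters, fits of only the groups compared, limma 3.58.1 voom, a replicate block and leaving out mice. Leaving out all 3 mice of few detected genes was chosen after seeing the data.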

Additional observations from a re-analysis of the deposited data

Results flagged for a closer look

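Dixon's criterion was applied to each lysosomal gene in each adult group of 5 to 7 mice, 196 groups of values in all. In these, 24 values lay apart from the rest of their group, where chance sets about 1 in 20 groups apart. The values came mostly from a few adult mice. The P9 groups of 12 and 13 pups were not tested in this way.

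Mouse P200_5.3_CTR_LPS was the isolated low value of 8 genes. Its levels were 1217 CPM for Ctsa (others 2006 to 2316), 3283 for Ctsb (6177 to 7215), 1558 for Ctsz (2177 to 2618), 27.9 for Lyz2 (76.9 to 141), 3389 for Psap (4935 to 6391), 192 for Gm2a (362 to 421), 604 for Npc2 (826 to 979) and 81.8 for Atp6v1a (126 to 153). Without this mouse, the number of lysosomal genes called after LPS in CTR was 5, with Ctsb and Atp6v1a added to Acp5, Lyz2 and Lipa.

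Mouse P200_11.2_ELS_LPS was the isolated high value of 4 genes, at 760 CPM for Cd63 (others 393 to 443), 1470 for Ctsh (950 to 1070), 1554 for Hexa (1158 to 1206) and 219 for Naglu (156 to 161). Mouse P200_1.1_CTR_PBS, which had few detected genes, was the isolated low value of 5, at 590.4 CPM for Tpp1 (693 to 772), 240.4 for Gm2a (332 to 378), 1.12 for Tfeb (11.3 to 14.7), 146 for Atp6v0d1 (201 to 246) and 58.4 for Atp6v1a (92.7 to 116).

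The other values were single genes. P200_17.2_ELS_PBS was low for Ctsb at 3573 CPM (4815 to 5210) and for Lyz2 at 20.7 (44.0 to 61.1). P200_4.1_ELS_PBS was low for Lipa at 295 (345 to 376), P200_8.1_CTR_PBS was high for Ctsa at 2184 (1680 to 1826), and P200_1.3_CTR_LPS was high for Acp5 at 0.419 (0 to 0.0563). Atp6v0d2 had a single count in P200_5.1_CTR_PBS (0.0397 CPM) and in P200_1.2_CTR_LPS (0.0666 CPM), with 0 in the rest of those groups.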

How the results depend on the processing

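No fold change of a named lysosomal gene turned its direction under any alternative, and of 1322 refitted values of 75 named results, 59 lost the call and 1263 kept their side of the threshold. The calls at P9 between ELS and CTR, in LPS mice between ELS and CTR, and in both tests of a difference between rearing groups were 0 under every alternative. Called genes with age numbered 29 to 35 in CTR and 26 to 36 in ELS, and 29 to 31 and 30 to 31 when single adult mice were left out.

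The single call of ELS-PBS over CTR-PBS, Plbd2, became 0 with DESeq2 size factors in edgeR, with filterByExpr, with no filter on low counts, with only the groups compared, with limma voom and without the mice P9_19.3_ELS and P200_1.1_CTR_PBS, and it was 0 to 1 when single mice were left out. It was kept by the likelihood-ratio test, by DESeq2 and, in a setting chosen after seeing the data, without the 3 mice of few detected genes. The number called after LPS in CTR, 3 of 50, was 5 with only the groups compared, 6 without those same 2 mice, 7 without the 3 mice and 2 to 5 when single mice were left out. It was 5 without P200_1.1_CTR_PBS, 5 without P200_5.3_CTR_LPS and 2 without P200_1.3_CTR_LPS. In ELS, 8 of 50, it was 15 without the 3 mice and 6 to 9 when single mice were left out. None of the 3 mice is in the ELS comparison of LPS with PBS, which shares its estimate of the spread with all groups.

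Among single genes, the LPS response of Acp5 missed the threshold with limma voom, at 1.33 in CTR (adjusted p = 0.447) and, in ELS mice, 2.81 (adjusted p = 0.0911). The age change of Ctsd in ELS missed the threshold with only the groups compared (adjusted p = 0.0583). Npc1 and Ppt1 in ELS lost their age calls under 7 and 4 alternatives, and Mcoln1 in CTR under 4. Lipa and Mitf after LPS in ELS each lost theirs under 11. The cause was not tested.

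Mouse numbers share a first part, taken as the nest. Deviations of PBS and LPS adults with the same first part correlated at −0.041 to 0.084 over 10 nests, above 0.1 in 0, so the numbers were not treated as pairing. Pups of a nest share a rearing group, and their mean pairwise correlation was −0.175 to 0.147 over 9 nests, above 0.1 in 1, against −0.110 between nests in P9-CTR and −0.077 in P9-ELS. With the nest as a random effect in limma voom, 30 genes were called with age in CTR and 31 in ELS. With the nest as a replicate block, 2 lysosomal genes were called after LPS in CTR (Lipa and Mitf, without Lyz2) and 8 in ELS (Ctss added), and 0 differed between rearing groups. Acp5 was not tested there, since it was below the filter among adults. Depth limits Acp5, Atp6v0d2, Ctse and Ctsk, which had at most a few counts in most adults.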
